A study of Mus musculus with 12 samples.

Results

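The genes described are the histone and DNA modifying enzymes that the deposited array annotation names by the symbols Kdm1 to Kdm8, Setd, Smyd, Suv, Prmt, Dnmt, Hdac, Sirt1 to Sirt7 or Tet1 to Tet3. Only probe sets assigned to a single gene were taken, and Kdm5d was left out. This gave 68 genes of the 20962 genes on the array, read by 162 probe sets. The rule uses names only. The genes fall into 11 families of 3 to 15 genes, of which the lysine demethylases are the largest. Some symbols are older ones, namely Setd8 (now Kmt5a), Suv420h1 (Kmt5b), Suv420h2 (Kmt5c) and Prmt10 (Prmt9).

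CD8 T cells of 6 male C57BL/6 mice, all aged 4 weeks, were profiled on 12 Affymetrix perfect-match mouse arrays in 4 groups of 3: activated Ezh2-knockout, activated wild-type, naive Ezh2-knockout and naive wild-type cells. Knockout mice (numbered 4 to 6) had 2 conditional (floxed) copies of Ezh2 together with Cre driven from a CD4 promoter, so that Ezh2 is removed in the T cell lineage and not only in CD8 cells; the wild-type mice (numbered 1 to 3) carried neither change as far as the labels state. The CD8 cells were taken from spleen and lymph nodes with magnetic beads, at a purity of over 93% by flow cytometry, and the cells called naive were used fresh. Cells called activated had spent 3 days in culture on plate-bound anti-CD3 with a second antibody, which the study design gives as anti-CD28 and the sample labels as anti-CD38. Each mouse gave a naive and an activated sample, so naive and activated groups of a genotype share animals, while the genotypes do not. The main fit compared group means without pairing by mouse, and mouse as a block was an alternative.

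These enzymes write and remove chemical marks on chromatin. Methyltransferases add methyl groups to cytosines in DNA or to lysines and arginines of histones, demethylases and TET enzymes take them off or oxidise them, and histone deacetylases and sirtuins remove acetyl groups. In T cells, which divide rapidly after antigen contact, such marks are copied onto new chromatin and help to fix the programs of effector and memory cells. Ezh2 itself, which is not among the 68 genes, is the methyltransferase of Polycomb repressive complex 2 and places the repressive methyl marks on lysine 27 of histone H3 that Kdm6a and Kdm6b remove.

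Ezh2 was read first as a check of the labels. It measured 2.72, 3.59 and 3.78 (log2 expression, the unit of all levels given here) in activated knockout cells of mice 4, 5 and 6, and 5.56, 5.26 and 5.35 in activated wild-type cells, against 1.95, 2.14 and 2.18 in naive knockout cells and 2.31, 2.16 and 2.42 in naive wild-type cells. Activated knockout cells lay below activated wild-type cells on every array, with a log2 difference of -2.02 ± 0.20 (SE, n = 3 mice per group) and an adjusted p of 4.09e-05. Naive knockout and naive wild-type cells overlapped, and their difference of -0.20 ± 0.20 did not pass (adjusted p = 0.845). Throughout, p-values are from limma, adjusted over all 20962 genes, and a gene is said to have risen or fallen where its adjusted p lay under 0.05. The 9 CD8 T cell markers averaged 5.20 to 5.39 on the activated knockout arrays, 5.56 to 5.67 on the activated wild-type arrays, 6.28 to 6.39 on the naive knockout arrays and 6.21 to 6.29 on the naive wild-type arrays, and none of the 9 lay below 0.94, the median of all probe sets. In such bulk samples, fewer cells of a type and less RNA per cell cannot be told apart.

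Activation changed a large share of the enzymes. In knockout cells 19 of the 68 genes rose, 10 fell and 39 did not pass. In wild-type cells 22 rose, 11 fell and 35 did not pass. Over all genes, 15.8% rose and 10.9% fell in knockout cells (26.7% in either direction), and 14.8% rose and 11.9% fell in wild-type cells (26.8% in either direction). The shares among the enzymes, 42.6% in knockout and 48.5% in wild-type cells, have to be read with their signal, because 61 of the 68 lay above the median of all probe sets. When only genes above that median were fitted, 49.2% of these 61 enzymes passed in knockout cells and 55.7% in wild-type cells, against 44.3% and 42.8% of all 12164 such genes. The median change of the enzymes was 0.02 in knockout cells and 0.07 in wild-type cells, against -0.02 and -0.03 over all genes. More enzymes rose than fell, and the same was true of all genes. Among all genes above the median, 26.9% rose and 17.4% fell in knockout cells, and 25.5% rose and 17.3% fell in wild-type cells. The enzymes are given below by family, and no difference between families was tested.

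**Figure D1:**
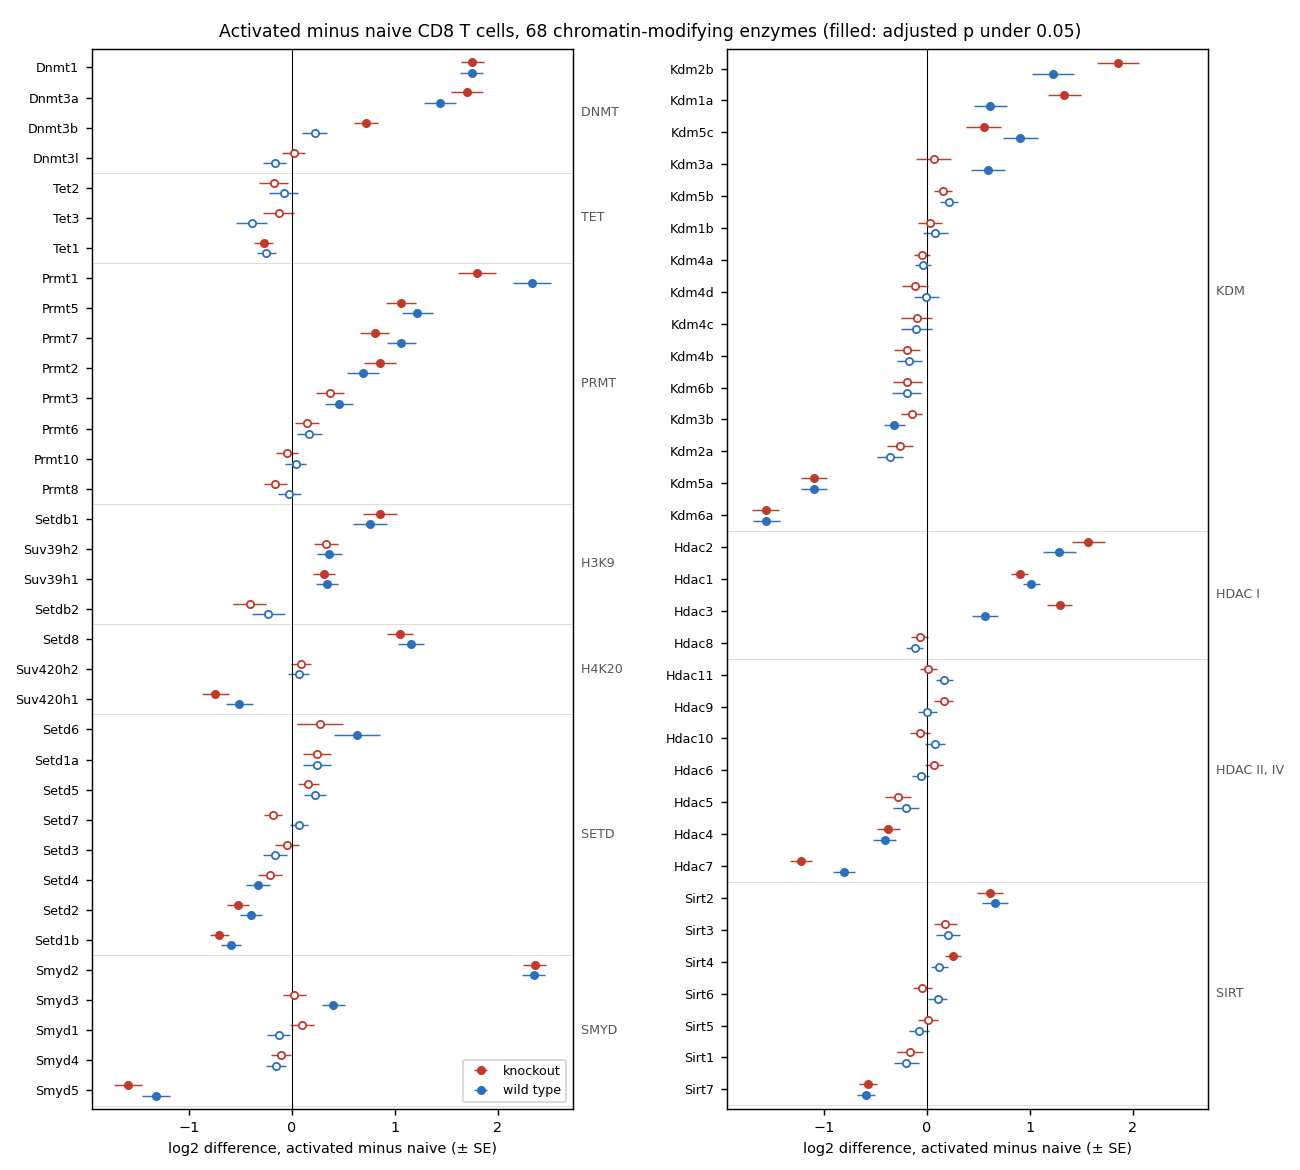
Change of each of the 68 enzymes on activation, as the log2 difference of activated minus naive cells (x axis, bars are SE, n = 3 mice per group), in knockout (red) and wild-type cells (blue), by family. Filled points passed at an adjusted p under 0.05; Smyd2, Prmt1, Dnmt1 and Dnmt3a stand at the right and Kdm6a, Smyd5, Hdac7 and Kdm5a at the left in both genotypes, each by its brightest probe set.

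Of the 68 enzymes, 17 rose in both genotypes, 9 fell in both and 32 passed in neither. Another 3 passed only in knockout cells (Dnmt3b and Sirt4 rose, Tet1 fell) and 7 only in wild-type cells (Kdm3a, Prmt3, Setd6, Smyd3 and Suv39h2 rose, Kdm3b and Setd4 fell). None passed in opposite directions. For none of these 10 genes did the test of the difference between the genotypes pass, so a difference in response between the genotypes is not shown for them.

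Of the 4 DNA methyltransferases, 3 rose in knockout cells and 2 in wild-type cells. Dnmt1, the maintenance enzyme that methylates newly copied DNA, measured 6.51, 6.51 and 6.45 in activated knockout cells and 6.48, 6.21 and 6.49 in activated wild-type cells, against 4.67, 4.95 and 4.59 in naive knockout cells and 4.66, 4.78 and 4.51 in naive wild-type cells. Every activated array lay above every naive array, and the log2 difference was 1.75 ± 0.11 in knockout cells (3.36-fold, adjusted p = 9.18e-09) and 1.74 ± 0.11 in wild-type cells (3.34-fold, adjusted p = 1.06e-08). Dnmt3a, a de novo methyltransferase, measured 4.64, 4.92 and 4.43 in activated knockout cells and 4.49, 4.54 and 4.39 in activated wild-type cells, against 3.02, 3.00 and 2.88 in naive knockout cells and 3.16, 3.33 and 2.63 in naive wild-type cells. Activated and naive arrays again did not overlap, with log2 differences of 1.70 ± 0.15 in knockout cells (adjusted p = 4.4e-07) and 1.44 ± 0.15 in wild-type cells (adjusted p = 2.94e-06). All 3 probe sets of Dnmt1 and all 5 of Dnmt3a rose in both genotypes.

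Dnmt3b, the other de novo enzyme, lay much nearer the bottom of its scale, at 2.16, 1.71 and 1.62 in activated knockout cells and 1.59, 1.42 and 1.59 in activated wild-type cells, against 1.18, 1.16 and 1.00 in naive knockout cells and 1.30, 1.29 and 1.35 in naive wild-type cells. Its difference was 0.72 ± 0.12 in knockout cells (adjusted p = 0.000228) and 0.22 ± 0.12 in wild-type cells (adjusted p = 0.209). The change in knockout cells exceeded that in wild-type cells by 0.50 on the log2 scale, a difference between genotypes that did not pass (adjusted p = 0.28). Without the probe sets that the authors noted for possible cross-hybridization, the value in knockout cells was -0.04. Dnmt3l, a partner without catalytic activity, had no passing difference.

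Of the 3 TET dioxygenases, which oxidise methylated cytosine, 1 passed, in knockout cells, where 26.7% of all genes passed. Tet1 measured 0.79, 0.76 and 0.84 in activated knockout cells against 1.19, 1.01 and 1.01 in naive knockout cells, and fell by 0.27 (adjusted p = 0.0419). In wild-type cells its difference was -0.25 ± 0.09 with an adjusted p of 0.0618. The call in knockout cells was lost under 14 of 25 alternative settings. Tet2 (differences of -0.18 in knockout and -0.08 in wild-type cells) and Tet3 (-0.13 and -0.39) did not pass; with mouse as a block, Tet3 passed in wild-type cells (adjusted p = 0.0252).

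Of the 8 protein arginine methyltransferases, 4 rose in knockout cells and 5 in wild-type cells by their brightest probe sets, and the others did not pass. Among all genes, 15.8% rose in knockout and 14.8% in wild-type cells. A further probe set of Prmt3 fell, as described with the probe sets. Prmt1, the main source of asymmetric arginine dimethylation, measured 5.77, 5.79 and 5.27 in activated knockout cells and 5.82, 5.69 and 5.84 in activated wild-type cells, against 3.39, 4.02 and 4.02 in naive knockout cells and 3.36, 3.80 and 3.21 in naive wild-type cells. No activated array came near a naive one, and the log2 difference was 1.80 ± 0.18 in knockout cells (3.48-fold, adjusted p = 1.68e-06) and 2.33 ± 0.18 in wild-type cells (5.02-fold, adjusted p = 1.2e-07). The only probe set of Prmt1 carries the note of possible cross-hybridization. Prmt5, which makes symmetric dimethylarginine, measured 3.96, 3.97 and 3.38 in activated knockout cells and 3.89, 3.67 and 3.98 in activated wild-type cells, against 2.91, 2.75 and 2.48 in naive knockout cells and 2.56, 2.72 and 2.61 in naive wild-type cells. It rose by 1.06 ± 0.15 in knockout cells and 1.22 ± 0.15 in wild-type cells, without overlap of activated and naive arrays, and its chosen probe set carries the authors' mark for matching the antisense strand. Prmt7, a monomethylating enzyme, rose by 0.80 and 1.06, and Prmt2 by 0.85 and 0.69, in knockout and wild-type cells. Prmt7 had values of -0.15 and -0.21 where probe sets with the cross-hybridization note were left out. Prmt6, Prmt8 and Prmt10 did not pass in either genotype.

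On histone H3 lysine 9, a mark of silent chromatin, Setdb1 rose by 0.86 ± 0.16 in knockout cells (adjusted p = 0.000767) and 0.76 ± 0.16 in wild-type cells (adjusted p = 0.00224). It measured 2.79, 2.35 and 2.85 in activated knockout cells and 2.59, 2.65 and 2.55 in activated wild-type cells, against 2.08, 1.58 and 1.75 in naive knockout cells and 1.72, 2.19 and 1.60 in naive wild-type cells, with no overlap. Suv39h1, which places trimethylation at the same lysine, rose by 0.31 ± 0.11 in knockout cells (adjusted p = 0.0445) and 0.34 ± 0.11 in wild-type cells (adjusted p = 0.0284), where mouse 1 activated (1.94) lay below mouse 3 naive (1.99). This chosen probe set carries both the antisense mark and the note of possible cross-hybridization. The other probe set of Suv39h1 rose by 0.94 in both genotypes. The related Suv39h2 differed by 0.33 ± 0.12 in knockout cells (adjusted p = 0.0538) and 0.36 ± 0.12 in wild-type cells (adjusted p = 0.0342); with mouse as a random block it passed in knockout cells too (adjusted p = 0.0493). Without probe sets noted for cross-hybridization, Suv39h2 was read by 1436561_PM_at and stood at -0.02 in wild-type cells. In knockout cells that set measured 0.99, 0.87 and 1.09 in activated against 1.26, 1.29 and 1.27 in naive cells. It was thus lower in activated knockout cells without overlap, opposite to the chosen probe set.

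Of the 3 enzymes of histone H4 lysine 20, 1 rose and 1 fell in each genotype. Among all genes, 26.7% passed in either direction in knockout and 26.8% in wild-type cells. Setd8, the monomethyltransferase, which is known to be tied to the cell cycle, measured 3.66, 3.93 and 3.73 in activated knockout cells and 3.83, 3.65 and 3.85 in activated wild-type cells, against 2.87, 2.78 and 2.53 in naive knockout cells and 2.35, 2.67 and 2.84 in naive wild-type cells. The rise was 1.05 ± 0.13 in knockout cells (adjusted p = 9.31e-06) and 1.16 ± 0.13 in wild-type cells (adjusted p = 3.57e-06). Suv420h1, which adds further methyl groups, measured 1.62, 1.27 and 1.79 in activated knockout cells and 1.67, 1.57 and 1.67 in activated wild-type cells, against 2.32, 2.23 and 2.36 in naive knockout cells and 2.28, 1.87 and 2.29 in naive wild-type cells. Activated arrays lay below naive ones without overlap in either genotype, and it fell by 0.75 in knockout cells (adjusted p = 0.000383) and by 0.51 in wild-type cells (adjusted p = 0.00798). Without probe sets noted for cross-hybridization neither passed (-0.31, adjusted p = 0.186 in knockout and -0.26, adjusted p = 0.273 in wild-type cells), nor did the value in wild-type cells among mice 1, 2, 4 and 5 alone (-0.46, adjusted p = 0.059). Suv420h2 did not pass, with differences of 0.09 and 0.07.

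Smyd2, a lysine methyltransferase of histones and of p53, had the largest fitted rise of the 68 enzymes in both genotypes, in wild-type cells level with Prmt1. It measured 4.27, 4.31 and 4.39 in activated knockout cells and 4.31, 3.95 and 4.27 in activated wild-type cells, against 1.84, 2.07 and 2.00 in naive knockout cells and 1.76, 1.72 and 2.01 in naive wild-type cells. The gap between the lowest activated and the highest naive array was wider than the whole spread within any group. The log2 difference was 2.35 ± 0.11 in knockout cells (5.11-fold, adjusted p = 3.83e-10) and 2.34 ± 0.11 in wild-type cells (5.08-fold, adjusted p = 4.28e-10), from a probe set marked as matching the antisense strand. This is the only probe set of Smyd2, and it also carries the note of possible cross-hybridization. Smyd3 differed by 0.02 in knockout cells and rose by 0.40 in wild-type cells (adjusted p = 0.0146), where it was 0.093 and did not pass without probe sets noted for cross-hybridization.

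Of the other 8 Setd proteins, 2 fell in both genotypes, Setd1b and Setd2. Setd1b, the catalytic part of a complex that methylates histone H3 lysine 4 at promoters, measured 0.66, 0.74 and 0.68 in activated knockout cells and 0.97, 1.11 and 0.84 in activated wild-type cells, against 1.46, 1.46 and 1.27 in naive knockout cells and 1.52, 1.71 and 1.46 in naive wild-type cells. It fell by 0.70 in knockout cells (adjusted p = 3.38e-05) and by 0.59 in wild-type cells (adjusted p = 0.000191). The activated knockout arrays lay below 0.94, the median of all probe sets. Setd2, which trimethylates histone H3 lysine 36 along transcribed genes, fell by 0.52 in knockout cells (adjusted p = 0.00139) and by 0.39 in wild-type cells (adjusted p = 0.0118), again with no overlap of activated and naive arrays. Setd1a, the partner enzyme of Setd1b in a sister complex, had differences of 0.24 in both genotypes that did not pass, and Setd7 differed by -0.18 in knockout and 0.07 in wild-type cells without passing. Setd6 rose by 0.63 in wild-type cells only at the edge of the threshold (adjusted p = 0.0468), and was -0.048 without probe sets noted for cross-hybridization. Setd4 fell by 0.33 in wild-type cells (adjusted p = 0.0477), with mouse 1 activated (1.24) above naive cells of mice 1 and 2 (1.22 and 1.18); with mouse as a block its adjusted p was 0.0509, and without probe sets noted for cross-hybridization its value was -0.08.

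**Figure D2:**
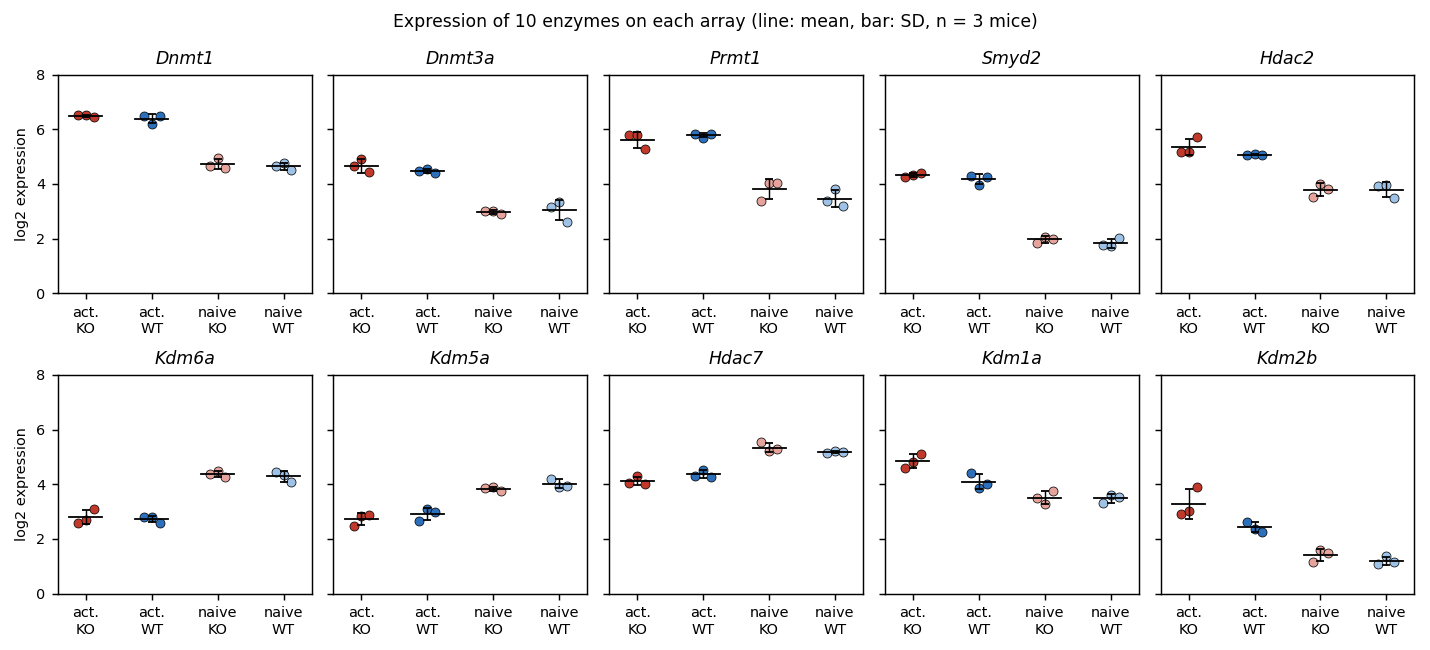
Log2 expression of 10 enzymes on each of the 12 arrays (points; line, mean; bar, SD; n = 3 mice), with activated knockout, activated wild-type, naive knockout and naive wild-type cells from left to right. Activated and naive arrays do not overlap within either genotype, and Kdm1a lies higher on all 3 activated knockout arrays (4.59 to 5.12) than on the activated wild-type arrays (3.86 to 4.41).

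Lysine demethylases held both large rises and large falls. Kdm2b, which binds unmethylated CpG islands, brings a variant Polycomb complex there and demethylates histone H3 lysine 36, measured 2.92, 3.02 and 3.91 in activated knockout cells and 2.63, 2.38 and 2.27 in activated wild-type cells, against 1.17, 1.60 and 1.50 in naive knockout cells and 1.08, 1.36 and 1.14 in naive wild-type cells. It rose by 1.86 ± 0.20 in knockout cells (3.62-fold, adjusted p = 3.45e-06) and 1.23 ± 0.20 in wild-type cells (2.34-fold, adjusted p = 0.000237). Kdm1a, the flavin-dependent demethylase of histone H3 lysine 4, measured 4.59, 4.82 and 5.12 in activated knockout cells and 4.41, 3.86 and 4.02 in activated wild-type cells, against 3.50, 3.29 and 3.75 in naive knockout cells and 3.30, 3.60 and 3.55 in naive wild-type cells. Activated arrays lay above naive ones in each genotype. The rise was 1.33 ± 0.16 in knockout cells (adjusted p = 9.37e-06) and 0.61 ± 0.16 in wild-type cells (adjusted p = 0.00911); after quantile normalization the rise in wild-type cells no longer passed, nor did it without the activated array of mouse 1 (0.46, adjusted p = 0.0583).

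Kdm6a, a demethylase of histone H3 lysine 27 and so an enzyme acting against the mark of Ezh2, measured 2.60, 2.71 and 3.10 in activated knockout cells and 2.79, 2.82 and 2.60 in activated wild-type cells, against 4.37, 4.47 and 4.25 in naive knockout cells and 4.46, 4.35 and 4.07 in naive wild-type cells. Activated arrays lay below naive ones without overlap, and the fitted change was -1.56 ± 0.13 in knockout cells (adjusted p = 1.98e-07) and -1.56 ± 0.13 in wild-type cells (adjusted p = 2.33e-07). Without probe sets noted for cross-hybridization Kdm6a is read by another probe set, and neither call held, at -0.0077 in knockout cells (adjusted p = 0.981) and -0.11 in wild-type cells (adjusted p = 0.659). Kdm6b, the related demethylase of the same lysine, differed by -0.19 and -0.20 by its brightest probe set and did not pass. That probe set carries the antisense mark.

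Among the Kdm5 demethylases of trimethylated histone H3 lysine 4, Kdm5a measured 2.49, 2.82 and 2.89 in activated knockout cells and 2.67, 3.09 and 2.99 in activated wild-type cells, against 3.85, 3.89 and 3.75 in naive knockout cells and 4.20, 3.91 and 3.93 in naive wild-type cells. It fell by 1.10 in both genotypes (adjusted p = 6.54e-06 in knockout and 7.27e-06 in wild-type cells) with no overlap. Kdm5b, its relative, did not pass by its brightest probe set, with differences of 0.16 and 0.21. A dimmer set of Kdm5b, 1442278_PM_at, lay lower in activated than in naive cells, without overlap in either genotype. It measured 0.90, 1.41 and 1.13 in activated against 1.63, 1.61 and 1.82 in naive knockout cells. In wild-type cells it measured 1.36, 1.32 and 1.32 in activated against 1.52, 1.67 and 1.61 in naive cells. Kdm5c rose by 0.55 in knockout cells (adjusted p = 0.0245) and 0.91 in wild-type cells (adjusted p = 0.000759) by its brightest probe set, but another of its probe sets fell in each genotype, as described with the probe sets. Without probe sets noted for cross-hybridization Kdm5c did not pass, at 0.033 in knockout cells and 0.041 in wild-type cells. The histone H3 lysine 9 demethylase Kdm3a rose by 0.59 in wild-type cells (adjusted p = 0.0151) against a difference of 0.07 in knockout cells. Its relative Kdm3b fell by 0.31 in wild-type cells (adjusted p = 0.0336), a call that did not pass with mouse as a block (adjusted p = 0.0613). Kdm2a, a histone H3 lysine 36 demethylase, differed by -0.36 in wild-type cells (adjusted p = 0.0509) and passed there with mouse as a block (adjusted p = 0.0193). Kdm7a, a demethylase that the deposited annotation lists under an older symbol and that is therefore outside the 68, differed by -1.42 in knockout and -1.41 in wild-type cells and passed in both.

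Of the 4 class I deacetylases, 3 rose in both genotypes, namely Hdac1, Hdac2 and Hdac3, which sit in nuclear corepressor complexes. Over all genes, 15.8% rose in knockout and 14.8% in wild-type cells. The chosen probe sets of these 3 enzymes all carry the note of possible cross-hybridization. Hdac2 measured 5.16, 5.18 and 5.70 in activated knockout cells and 5.06, 5.08 and 5.06 in activated wild-type cells, against 3.54, 4.02 and 3.80 in naive knockout cells and 3.92, 3.96 and 3.47 in naive wild-type cells. Its rise was 1.56 ± 0.16 in knockout cells (adjusted p = 1.6e-06) and 1.28 ± 0.16 in wild-type cells (adjusted p = 1.42e-05). The probe set left for Hdac2 without the cross-hybridization note fell by 0.34 in knockout cells (adjusted p = 0.0442) and stood at -0.14 in wild-type cells. Hdac1, with which it shares complexes, rose by 0.90 ± 0.08 in knockout cells (adjusted p = 2.93e-07) and 1.01 ± 0.08 in wild-type cells (adjusted p = 9.1e-08). Hdac3, the catalytic part of the NCoR and SMRT complexes, measured 3.09, 2.82 and 3.19 in activated knockout cells and 2.88, 2.53 and 2.74 in activated wild-type cells, against 1.49, 1.79 and 1.95 in naive knockout cells and 2.14, 2.17 and 2.13 in naive wild-type cells. Activated arrays lay above naive ones in both genotypes, by 1.29 ± 0.13 in knockout cells (adjusted p = 9.85e-07) and 0.57 ± 0.13 in wild-type cells (adjusted p = 0.00278). Hdac1 and Hdac3 are each read by a single probe set, which carries the note of possible cross-hybridization. Hdac8, the fourth member, had differences of -0.07 and -0.12. Its mean over all arrays lay below the median of all probe sets, although its naive knockout mean of 1.01 did not.

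Class IIa enzymes shuttle between nucleus and cytoplasm, and of the 7 genes of classes II and IV, 2 fell in each genotype. That share of 28.6% is close to the 26.7% and 26.8% of all genes that passed in either direction, and no difference between the classes was tested. Hdac7, known for its high expression in developing T cells, measured 4.06, 4.30 and 4.01 in activated knockout cells and 4.31, 4.53 and 4.28 in activated wild-type cells, against 5.53, 5.22 and 5.28 in naive knockout cells and 5.14, 5.20 and 5.18 in naive wild-type cells. It fell by 1.22 in knockout cells (adjusted p = 2.76e-07) and by 0.80 in wild-type cells (adjusted p = 2.62e-05), with no overlap. Hdac4 fell by 0.37 in knockout cells (adjusted p = 0.0179) and by 0.41 in wild-type cells (adjusted p = 0.0107); without mouse 4 the value in knockout cells was -0.24 and did not pass, and without probe sets noted for cross-hybridization Hdac4 did not pass in either genotype (-0.17 and -0.10). Hdac5 differed by -0.28 and -0.20 without passing, and Hdac6, Hdac9, Hdac10 and Hdac11 did not pass either.

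Of the 7 sirtuins, which consume NAD, 2 passed in both genotypes. In either direction 42.9% of the 7 passed in knockout and 28.6% in wild-type cells, against 26.7% and 26.8% of all genes. Sirt7, a nucleolar enzyme, measured 2.73, 2.94 and 2.94 in activated knockout cells and 2.92, 2.97 and 3.04 in activated wild-type cells, against 3.42, 3.52 and 3.38 in naive knockout cells and 3.48, 3.70 and 3.53 in naive wild-type cells. It fell by 0.57 in knockout cells (adjusted p = 0.000135) and by 0.59 in wild-type cells (adjusted p = 9.95e-05). Sirt2, mainly cytoplasmic, rose by 0.61 in knockout cells (adjusted p = 0.00166) and by 0.66 in wild-type cells (adjusted p = 0.000877). The mitochondrial Sirt4 lay at the low end of the scale, at 0.61, 0.57 and 0.44 in activated knockout cells against 0.24, 0.25 and 0.38 in naive knockout cells, and rose by 0.25 (adjusted p = 0.0286); with mouse as a block its adjusted p was 0.0609. Sirt1, the best studied nuclear sirtuin, differed by -0.16 and -0.20 without passing.

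Several of the smaller changes hung on single arrays. In knockout cells the rise of Kdm5c did not pass without naive mouse 5 (0.46, adjusted p = 0.104) or activated mouse 6 (0.29, adjusted p = 0.0793), and the fall of Hdac4 did not pass without naive mouse 4 (-0.25, adjusted p = 0.097) or activated mouse 5 (-0.33, adjusted p = 0.0752). Sirt4 was lost without any one of the knockout arrays of mice 4 and 5 (0.22 to 0.24). Suv39h1 was lost without any one of the activated knockout arrays, the naive knockout arrays of mice 5 and 6, naive wild-type mouse 2 or activated wild-type mouse 3 (adjusted p of 0.0552 to 0.163). Tet1 was lost without any one of the 6 knockout arrays, naive wild-type mouse 3 or activated wild-type mouse 1 (adjusted p of 0.0504 to 0.166).

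In wild-type cells Setd2 did not pass without naive mouse 3 (-0.33, adjusted p = 0.0603) or activated mouse 3 (-0.35, adjusted p = 0.0539), and Smyd3 not without naive mouse 3 (0.37, adjusted p = 0.0564) or activated mouse 1 (0.27, adjusted p = 0.0882). Kdm3a was lost without naive mouse 3 or activated mouse 1 or 3 (0.46 to 0.51), and Suv39h2 without naive mouse 2 or 3 or activated mouse 3 (0.24 to 0.33). Kdm3b was lost without naive mouse 1 or 2 or activated mouse 2 or 3 (-0.33 to -0.21), as was Suv39h1 (0.26 to 0.33). Prmt3 was lost without naive mouse 1 or 3 or activated mouse 1 or 3 (0.37 to 0.45). Setd6 was lost without 8 of the 12 arrays (adjusted p of 0.055 to 0.168) and Setd4 without 10 of them (adjusted p of 0.0547 to 0.232). None of these calls changed direction when an array was left out.

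Several probe sets read 43 of the 68 enzymes, and they did not always give the same answer. At least 2 probe sets rose and none fell for Dnmt1, Dnmt3a, Kdm1a, Kdm2b, Setd8 and Suv39h1 in both genotypes. At least 2 fell and none rose for Hdac7, Kdm5a and Kdm6a in both genotypes. The sets of Kdm6a that fell, and all sets of Kdm1a, carry the note of possible cross-hybridization. Probe sets passed in opposite directions for Hdac2, Kdm5c and Smyd5 in knockout cells and for Kdm5c, Prmt3 and Smyd5 in wild-type cells. Smyd5, a lysine methyltransferase, was the widest case. Its brightest probe set, 1447749_PM_at, measured 4.78, 4.80 and 4.49 in activated knockout cells and 4.79, 4.88 and 4.61 in activated wild-type cells, against 6.58, 6.29 and 5.98 in naive knockout cells and 5.97, 6.20 and 6.07 in naive wild-type cells, a fall of -1.59 ± 0.14 in knockout and -1.32 ± 0.14 in wild-type cells. Probe set 1451722_PM_s_at rose by 2.12 in knockout cells and 1.76 in wild-type cells. The dimmer 1425479_PM_at was also higher in activated cells, without overlap. It measured 1.48, 1.21 and 1.18 against 0.80, 0.71 and 0.93 in naive knockout cells. In wild-type cells it measured 1.12, 1.17 and 1.10 in activated against 0.93, 0.97 and 0.88 in naive cells. The direction of Smyd5 is therefore not settled by these arrays.

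For Kdm6a, probe set 1445198_PM_at carried the fall of 1.56 log2 units given above. Probe set 1427672_PM_a_at fell by 0.40 in knockout cells and by 0.62 in wild-type cells, and the others did not pass. The sets that fell drop out without noted probe sets, where Kdm6a stood at -0.0077 in knockout and -0.11 in wild-type cells. For Kdm6b, probe set 1442643_PM_at fell by 1.35 in knockout cells and by 1.44 in wild-type cells, whereas the brighter set used for the gene and the other two did not pass. Hdac2 rose by 2 of its 3 probe sets in both genotypes, and the third, 1439704_PM_at, fell by 0.34 in knockout cells (adjusted p over all probe sets = 0.0416). Kdm5c had 8 probe sets. Of these, 1441449_PM_at fell by 0.42 in knockout cells and 1457930_PM_at by 0.34 in wild-type cells. Prmt3 rose by 0.46 in wild-type cells by its brightest probe set, while 1457332_PM_at fell by 0.32 there and by 0.61 in knockout cells.

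**Figure D3:**
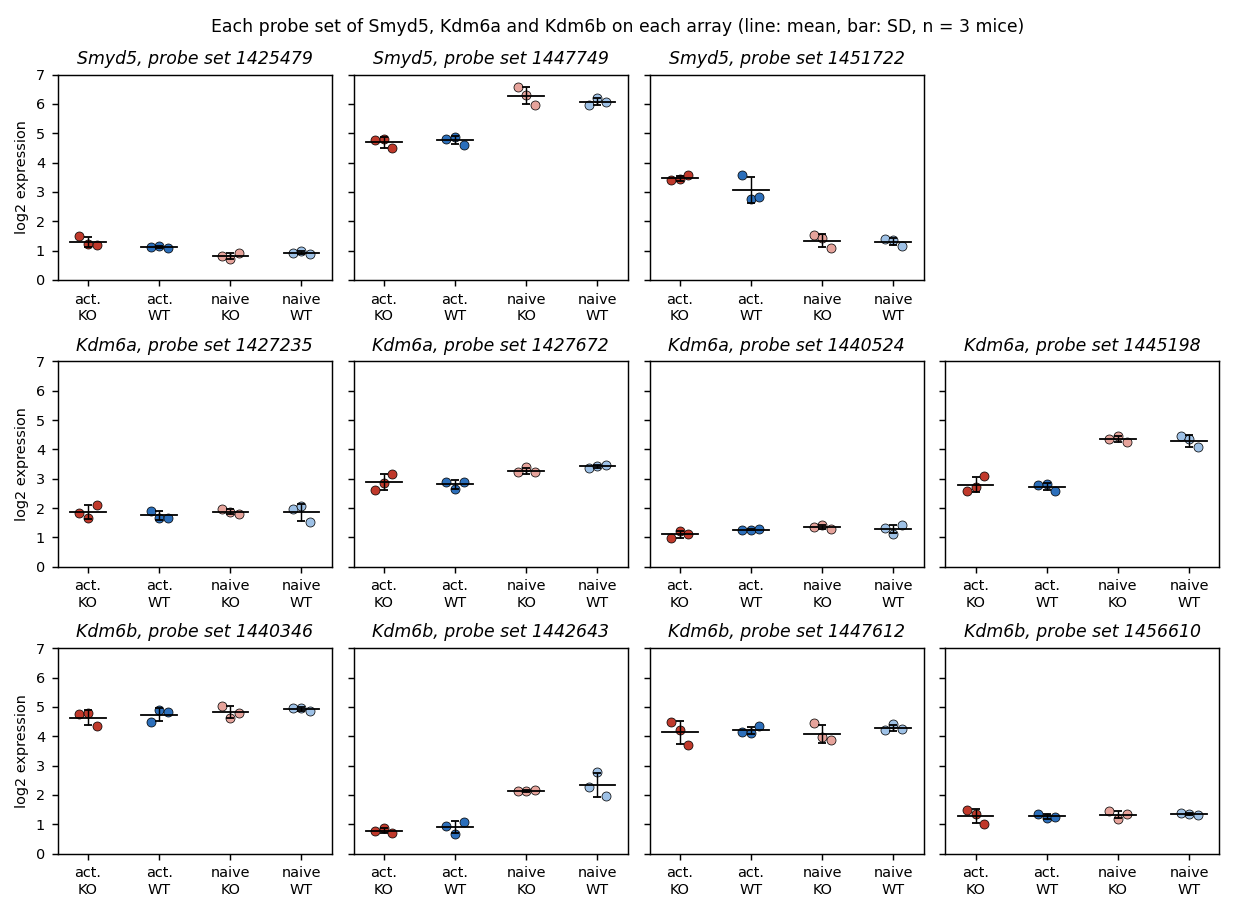
Log2 expression by each probe set of Smyd5, Kdm6a and Kdm6b on each array (points; line, mean; bar, SD; n = 3 mice), with activated knockout, activated wild-type, naive knockout and naive wild-type cells from left to right. Smyd5 probe set 1447749 is lower and 1451722 higher in activated than in naive cells. In Kdm6a and Kdm6b, whether a fall is seen, and its size, depends on the probe set.

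Promoters were compared because 17 members rose and 9 fell together on activation. The windows were the 250 bases before each annotated start in a RefSeq promoter table of mouse build GRCm38.p6, which held 58 of the 68 enzymes in 82 windows. They were searched on both strands for an E2F-type site (TTTCCCGC, TTTGGCGC, TTTCGCGC or TTTGCCGC), the kind of site bound by regulators of DNA replication genes, and for the E-box CACGTG, to which Myc-type factors bind; the E-box letters do not occur within the E2F-type ones. The windows that hold a match are printed 5′ to 3′ in the direction of the gene, with the match in capitals, for 5 enzymes that passed in both genotypes: Dnmt1 (chr9:20952624-20952873, minus strand), Suv39h1 (chrX:8074362-8074611, minus strand), Dnmt3a (chr12:3891494-3891743, plus strand), Prmt1 (chr7:44986421-44986670, minus strand) and Kdm6a (chrX:18162325-18162574, plus strand).
Dnmt1: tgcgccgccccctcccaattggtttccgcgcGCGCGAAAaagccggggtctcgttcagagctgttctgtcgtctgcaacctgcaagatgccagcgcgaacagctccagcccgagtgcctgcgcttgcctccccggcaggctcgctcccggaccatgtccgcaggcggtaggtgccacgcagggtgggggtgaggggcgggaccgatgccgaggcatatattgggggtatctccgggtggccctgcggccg
Suv39h1: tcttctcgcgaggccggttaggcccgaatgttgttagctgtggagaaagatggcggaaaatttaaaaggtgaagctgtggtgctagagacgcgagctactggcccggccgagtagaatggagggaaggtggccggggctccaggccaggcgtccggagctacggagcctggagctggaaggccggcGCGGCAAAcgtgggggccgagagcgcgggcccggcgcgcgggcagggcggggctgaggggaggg
Dnmt3a: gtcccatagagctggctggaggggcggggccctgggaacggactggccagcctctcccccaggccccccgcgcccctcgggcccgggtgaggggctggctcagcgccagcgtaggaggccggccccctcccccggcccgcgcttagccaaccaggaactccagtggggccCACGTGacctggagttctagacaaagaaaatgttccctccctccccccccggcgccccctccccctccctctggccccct
Prmt1: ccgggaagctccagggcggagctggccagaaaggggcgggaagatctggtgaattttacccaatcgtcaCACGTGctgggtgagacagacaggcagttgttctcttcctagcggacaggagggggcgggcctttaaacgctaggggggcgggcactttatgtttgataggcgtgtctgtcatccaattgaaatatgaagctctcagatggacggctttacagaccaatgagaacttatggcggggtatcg
Kdm6a: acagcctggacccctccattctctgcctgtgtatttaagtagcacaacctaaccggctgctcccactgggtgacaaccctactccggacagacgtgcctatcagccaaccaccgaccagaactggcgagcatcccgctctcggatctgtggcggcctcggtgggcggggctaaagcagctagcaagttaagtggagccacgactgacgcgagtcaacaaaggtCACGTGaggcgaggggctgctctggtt
The E2F-type match began at position -219 from the start in the Dnmt1 window and at -64 in the Suv39h1 window. The E-box began at -80 in Dnmt3a, at -181 in Prmt1 and at -27 in Kdm6a. Other annotated starts of Dnmt1, Dnmt3a and Suv39h1 had windows without a match.

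Of the 82 windows of the enzymes, 4 (4.88%) held an E2F-type match, against 1.86% of all 32851 promoters in the table, and 7 (8.54%) held the E-box, against 6.02%. The next counts are by enzyme, with a match in any of its windows, and cannot be set against the shares per window. Among enzymes that rose in both genotypes, 2 of 15 with a window held each motif. Among those that fell in both, 0 of 7 held the E2F-type motif and 1 of 7 the E-box. Among those that passed in neither, 1 of 28 held the E2F-type motif and 3 of 28 the E-box. These matches are descriptions of letters in the windows and say nothing of what binds there.

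The question the study design poses for these enzymes is whether loss of Ezh2 changed their expression. In naive cells, 0 of the 68 passed between knockout and wild type by limma, where 1.09% of all genes passed, and 7 had an unadjusted p under 0.05. The largest differences, knockout minus wild type, were Hdac3 at -0.41 ± 0.13 (adjusted p = 0.198), Kdm3a at 0.38 ± 0.17 (adjusted p = 0.477), Kdm5c at 0.35 ± 0.17 (adjusted p = 0.552) and Prmt1 at 0.35 ± 0.18 (adjusted p = 0.596). The 95% interval of the difference lay within 1 log2 unit of 0, which is within a 2-fold change, for all 68 enzymes, and within 0.5 for 58 of them. Markers of other cells did pass between the naive genotypes, where 5 of 14 B cell, 4 of 11 myeloid, 2 of 6 dendritic cell, 1 of 6 plasma cell genes and 1 of 6 CD4 and regulatory T cell genes fell in naive knockout cells and 2 of 8 NK cell genes rose and 3 fell; their part was not tested.

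In activated cells, 1 of the 68 enzymes passed between knockout and wild type, Kdm1a, which rose. Over all genes 1.32% passed, and 0.949% passed upward, so that a single enzyme is close to the share of all genes. Kdm1a was higher on all 3 activated knockout arrays than on any activated wild-type array, by 0.75 ± 0.16 (1.68-fold, adjusted p = 0.0319). The call did not hold without some single arrays. Without activated wild-type mouse 2 or mouse 3 its adjusted p was 0.161 or 0.143, and without activated knockout mouse 5 or mouse 6 it was 0.077 or 0.128. The authors' workbook numbers the arrays of mice 3 and 6 after those of the other mice, and among mice 1, 2, 4 and 5 alone the difference was 0.57 (adjusted p = 0.348), while mice 3 and 6 leave 1 array per group and no test. Its 2 probe sets differed in size, with 0.75 for 1426762_PM_s_at and 0.18 for 1426761_PM_at, which did not pass.

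Kdm2b had the largest difference between activated knockout and activated wild-type cells, 0.86 ± 0.20 (1.81-fold), with the 3 knockout arrays (2.92, 3.02 and 3.91) above the 3 wild-type arrays (2.63, 2.38 and 2.27). Its adjusted p was 0.0561. Without both arrays of mouse 4, the knockout mouse with the lowest activated Ezh2 level, Kdm2b differed by 1.04 with an adjusted p of 0.0186, and among mice 1, 2, 4 and 5 by 0.47 with an adjusted p of 0.4. A second, dimmer probe set of Kdm2b, 1452198_PM_at, rose by 0.48 when the test was run over all probe sets (adjusted p = 0.0478). A probe set of Dnmt3a that was not the brightest, 1423063_PM_at, likewise rose by 0.56 (adjusted p = 0.0367), whereas the brightest differed by 0.19. A dimmer probe set of Setd5, 1441125_PM_at, lay in the opposite direction. With activation it read 1.98, 2.21 and 1.99 in the knockout mice and 2.51, 2.90 and 2.36 in the wild-type mice, without overlap. The arrays of the brightest Setd5 set overlapped between these groups. By their brightest probe sets, the remaining enzymes spanned -0.31 (Smyd3, adjusted p = 0.295) to 0.31 (Hdac3, adjusted p = 0.368). Of the 68, 9 had an unadjusted p under 0.05. For 66 of the 68 the 95% interval lay within 1 log2 unit of 0, the exceptions being Kdm1a and Kdm2b, and for 57 it lay within 0.5. The panel genes Dnmt1, Kdm6a, Kdm6b, Setdb1, Hdac1 and Sirt1 had differences of 0.10, 0.06, -0.11, 0.07, -0.15 and 0.17.

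**Figure D4:**
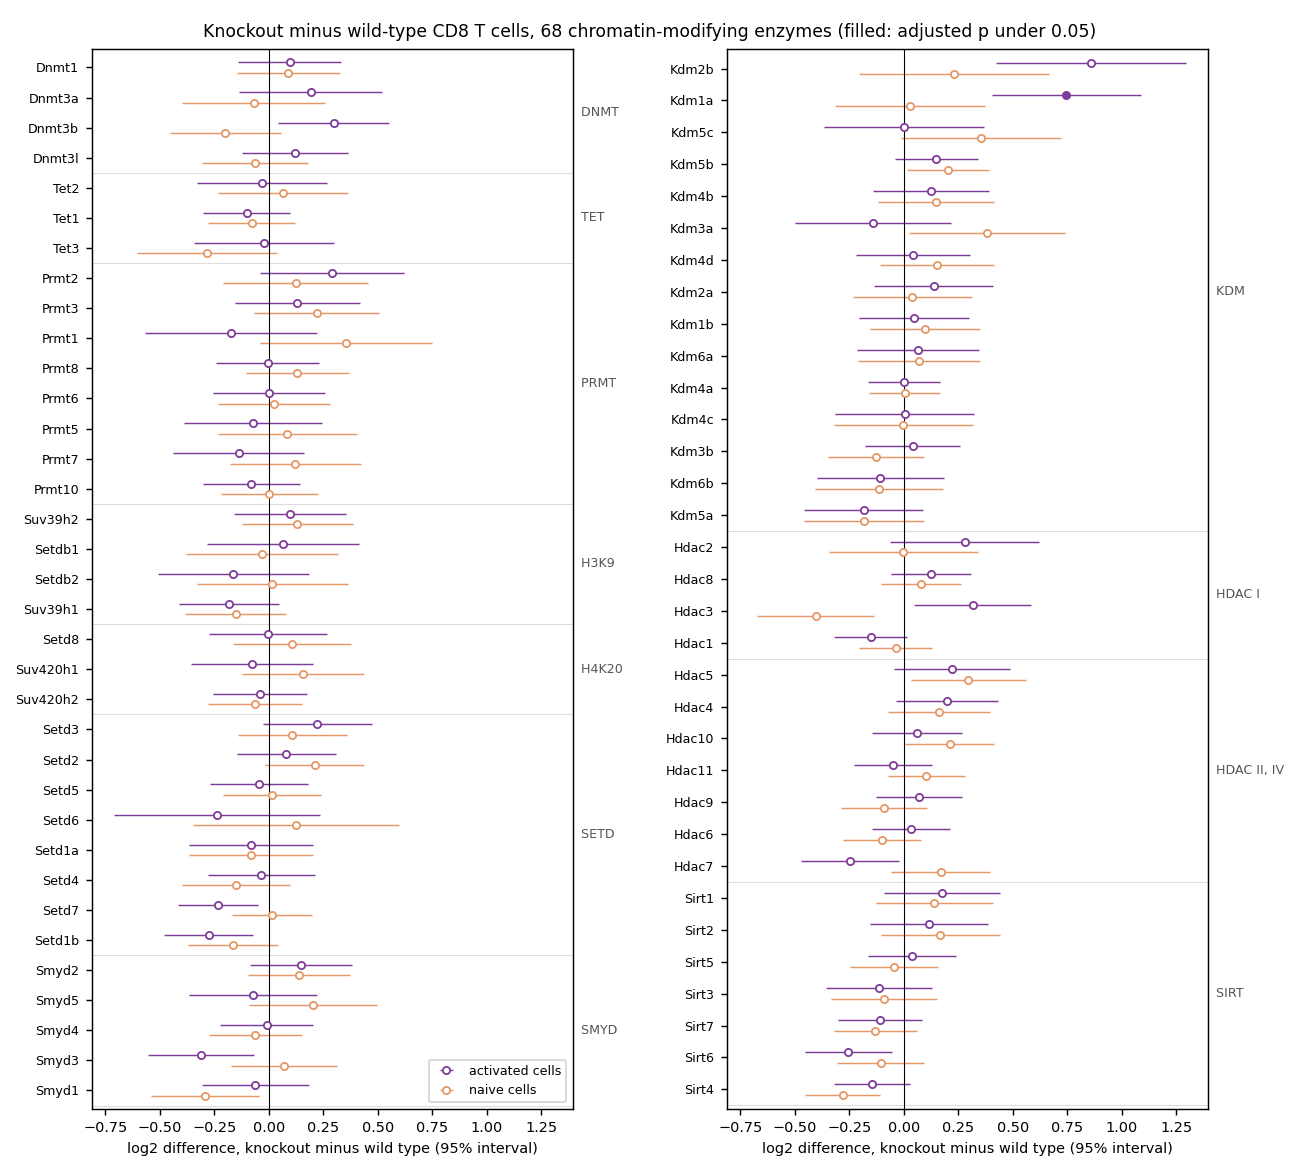
Difference of each of the 68 enzymes between knockout and wild-type cells (x axis, log2, bars are 95% intervals, n = 3 mice per group), in activated (purple) and naive cells (orange), by family. The single filled point is Kdm1a in activated cells at 0.75; Kdm2b lies further right at 0.86 and did not pass.

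The response to activation was compared between genotypes with the interaction term, the change in knockout cells minus the change in wild-type cells. No enzyme passed by limma, against 0.868% of all genes, and 7 had an unadjusted p under 0.05. The largest values were Hdac3 at 0.72 ± 0.18 (adjusted p = 0.0843), Kdm1a at 0.72 ± 0.23 (adjusted p = 0.229), Kdm2b at 0.63 ± 0.29 (adjusted p = 0.499) and Prmt1 at -0.53 ± 0.26 (adjusted p = 0.54). For Hdac3 the value combined lower naive knockout arrays (1.49, 1.79 and 1.95, against 2.14, 2.17 and 2.13 in naive wild-type cells, with no overlap) with activated knockout arrays that overlapped the activated wild-type ones. For 62 of the 68 enzymes the 95% interval of the difference in response lay within 1 log2 unit of 0.

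Partners and relatives of these enzymes outside the name rule were read from lists. Among 11 histone acetyltransferases, 1 rose and 3 fell in knockout cells and 2 rose and 3 fell in wild-type cells. Hat1, which acetylates newly made histone H4, rose by 2.19 in knockout and 1.74 in wild-type cells, and Kat6a fell by 0.96 and by 0.91. Of 14 further histone lysine methyltransferases and relatives, 2 rose and 6 fell in knockout cells and 2 rose and 4 fell in wild-type cells. Kmt2c, an enhancer H3 lysine 4 methyltransferase, fell by 1.31 and by 1.27, and the arginine methyltransferase Carm1, held in the same list, rose by 1.23 and 1.00. Of 10 further JmjC proteins, 4 rose and 3 fell in knockout cells and 3 rose and 2 fell in wild-type cells; Jarid2, a partner of Polycomb repressive complex 2, fell by 1.03 and by 0.80.

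Of 21 corepressor partners of the deacetylases, 5 rose and 5 fell in knockout cells and 6 rose and 5 fell in wild-type cells. That is 47.6% and 52.4% of the list, near the 44.3% and 42.8% of genes above the median. Sap30, of the Sin3 complex, rose by 2.07 in knockout and 1.96 in wild-type cells, the histone chaperone Rbbp7 rose by 1.28 and 1.26, and Chd3, a remodelling subunit of the NuRD complex, fell by 1.70 and by 1.42. Among 11 readers and partners of DNA methylation, 4 rose and none fell in knockout cells, and 4 rose and 2 fell in wild-type cells. Uhrf1, which brings Dnmt1 to freshly copied DNA, rose by 1.82 and 2.57, the remodeller Hells by 2.17 and 1.44, and the glycosylase Tdg, which acts after TET oxidation, by 2.00 and 1.88. Gadd45a, linked to DNA demethylation and repair, was the only gene of these partner lists to pass between activated knockout and activated wild-type cells (1.20, 1.10 and 1.38 against 0.62, 0.57 and 0.39, a difference of 0.70 ± 0.10 with an adjusted p of 0.00176), although its activated wild-type arrays lay below the median of all probe sets. Of 15 genes that supply methyl, acetyl or NAD cofactors, 5 rose and 2 fell in knockout cells and 5 rose and 3 fell in wild-type cells; Ahcy, which clears the by-product of every methyl transfer, rose by 1.85 and 1.95, and Acss2, which makes acetyl-CoA from acetate, fell by 0.88 and by 1.13.

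Other measures moved with activation as well. For comparison, 15.8% of all genes rose and 10.9% fell in knockout cells, and 14.8% rose and 11.9% fell in wild-type cells. Of 18 proliferation genes, 17 rose in both genotypes, with medians of 2.22 in knockout and 2.10 in wild-type cells, and Rrm2 rose by 4.91 and 4.53. The 14 B cell markers summed to 15.9 to 16.8 on the activated knockout arrays and 16.6 to 16.9 on the activated wild-type arrays, against 27.7 to 31.2 on the naive knockout arrays and 37.7 to 38.0 on the naive wild-type arrays (log2 sums). Of these markers 9 fell on activation in knockout and 13 in wild-type cells, and Cd79a, Ms4a1, Blk, Cr2, Fcer2a and Ebf1 lay below the median of all probe sets in both activated groups. The 8 NK cell markers summed to 18.5 to 19.3 on the activated knockout and 17.5 to 18.1 on the activated wild-type arrays, against 20.4 to 24.2 on the naive knockout and 19.5 to 20.3 on the naive wild-type arrays; 1 rose and 3 fell in knockout cells, 2 rose and 2 fell in wild-type cells, and Ncr1 lay below the median of all probe sets in every group. The 11 myeloid markers summed to 8.13 to 10.8 on the activated knockout and 9.19 to 9.71 on the activated wild-type arrays, against 10.5 to 10.7 on the naive knockout and 13.6 to 14.8 on the naive wild-type arrays; 2 fell in knockout and 4 in wild-type cells, and Cd14, Itgam, Adgre1 and Elane lay below that median in every group. All 11 early response genes, known to respond to cell handling, passed in both genotypes, 4 upward and 7 downward, with medians of -0.98 in knockout and -0.99 in wild-type cells. Of 6 dendritic cell genes 2 rose and 2 fell in each genotype, of 6 CD4 and regulatory T cell genes 1 rose and 1 fell in each, of 6 plasma cell genes 1 rose in each and 1 fell in knockout and 2 in wild-type cells, and of 7 erythroid and platelet genes none passed. Of 9 CD8 markers, 8 fell in knockout and 7 in wild-type cells, and 5 of the 9 fell in activated knockout relative to activated wild-type cells. The part of proliferation, of other cell types, of early response genes and of the CD8 marker levels in the changes of the enzymes was not tested.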

How the data were processed

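RNA of each sample (about 200 ng) was amplified and hybridized to 1 array. The authors deposited log2 values made with an RMA variant restricted to perfect-match probes, per the file headers and the submitters' processing notes; its version and the array's genome build are not given in the sources used here. Their table also carries a mark in a column of other values for probe sets matching the antisense strand, per the file headers. Array medians lay between 0.905 and 0.976, and the 2 deposited copies of the values differed by at most 5.0e-09. No detection calls entered the analysis, and precision is limited by the number of arrays.

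Of 45141 probe sets, 104 controls were left out; per the deposited annotation 38544 of the others name 1 gene, 860 several and 5633 none. Each gene was read by its probe set with the highest mean over the 12 arrays, which gave 20962 genes. RefSeq gene records for GRCm38.p6 gave current symbols through the gene identifier (18394 matched, 2568 kept the deposited symbol), and its promoter table gave the sequences. Of the 68 chosen probe sets, 4 carry the antisense mark and 39 a note of possible cross-hybridization.

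All 12 arrays were fitted with limma 3.58.1 in R 4.3.3, with a mean per group, and p-values were adjusted by Benjamini-Hochberg over all genes in each of 5 comparisons at 0.05; intervals are 95% intervals from the same fit. The step was tested on simulated data. Mice are separate animals, and both samples of an animal form a pair; the correlations of their deviations from the group means ran from -0.10 to 0.13, and the consensus correlation was 0.03. The members and lists were chosen with earlier results of these data known. Genes named are a panel, the 8 largest rises and falls that passed (all where 10 or fewer passed), the 4 largest changes where none passed, members with probe sets in opposite directions, Ezh2, and up to 3 passing genes per partner list. Levels are not compared between genes, since probe sets differ in their response. Figures were drawn with matplotlib 3.10.9 under Python 3.11.15.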

Additional observations from a re-analysis of the deposited data

Results flagged for a closer look

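The response of Ezh2 to activation differed between genotypes by an interaction term of -1.82 on the log2 scale (adjusted p = 0.00371 by limma): it rose by 1.27 in knockout cells and by 3.09 in wild-type cells. The response of Gadd45a also differed, by 0.87 (adjusted p = 0.00574), with a difference of 0.26 that did not pass in knockout cells (adjusted p = 0.0746) and a fall of 0.61 in wild-type cells. Neither gene is among the 68 enzymes. The cause of these differences was not tested.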

How the results depend on the processing

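Of the 29 calls of enzymes on activation in knockout cells, 18 held in all alternatives that gave a value, 7 were lost and 4 turned in at least 1, and of the 33 in wild-type cells, 16 held, 12 were lost and 5 turned, of which 2 were also lost in another. Among the calls that held, Hdac1, Hdac3, Prmt1, Prmt2, Sirt2, Sirt7 and Smyd2 had no value without probe sets noted for cross-hybridization. The same goes for Kdm1a in knockout cells, so that alternative did not test these calls. Prmt5 and Smyd2 had no value without probe sets marked antisense. Leaving out probe sets with a cross-hybridization note, which leaves fewer genes, gave 7 rises in knockout cells, 8 rises and 7 falls in wild-type cells and 0 rises between activated knockout and activated wild-type cells, where Kdm1a then had no value; over all genes 3279 and 3225 passed on activation in knockout and wild-type cells, 128 between genotypes in naive cells, 166 in activated cells and 95 in the difference of responses. It turned Dnmt3b (-0.039), Hdac2 (-0.34) and Prmt7 (-0.15) in knockout cells, Hdac2 (-0.14), Prmt7 (-0.21), Setd6 (-0.048) and Suv39h2 (-0.022) in wild-type cells and Kdm5c (-0.062) between naive knockout and wild-type cells. Smyd5 turned with the mean of its probe sets (0.33 in knockout and 0.21 in wild-type cells) and with the most variable one (2.12 and 1.76).

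Between activated knockout and activated wild-type cells the mean of all probe sets gave 3 rises, and genes above the median, an intensity trend with robust variances, and leaving out mouse 4 gave 2 each; the 6 arrays alone gave 0 and 153 genes. Mice 1, 2, 4 and 5 alone gave 0 enzymes and 103 genes there, 106 genes in naive cells and 90 in the difference of responses. Leaving out 1 array at a time gave 17 to 20 rises and 8 to 10 falls in knockout cells, 17 to 22 rises and 8 to 12 falls in wild-type cells, and 0 to 2 rises between activated genotypes; over all genes it gave 4963 to 5557, 4639 to 5924, 139 to 290 in naive cells, 147 to 316 in activated cells, and 122 to 234 for the difference of responses. Without activated wild-type mouse 1, 2 or 3 the counts over all genes were 182, 147 and 150 between activated genotypes, and without naive wild-type mouse 1 or 3 they were 139 and 148 between naive ones. With mouse as a fixed block (the replicate block), 18 rises and 10 falls in knockout cells and 22 rises and 11 falls in wild-type cells passed; pairing by mouse, as a fixed or random block, ended the calls of Sirt4, Kdm3b and Setd4, made those of Tet3, Kdm2a and Suv39h2, and changed no other call of an enzyme. The mouse 4 and sample-number alternatives were chosen after seeing the data. Low array signal limits Sirt4, Prmt8, Kdm4d, Hdac6, Hdac8, Hdac9 and Hdac11, whose mean over all arrays lay below the median of all probe sets, and also Tet1, Setd1b, Setd4, Prmt10 and Sirt5, for which at least 1 group mean did.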
